A study of Mus musculus with 4 samples.

Results

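The genes described here encode the machinery that licenses replication origins and copies DNA. There are 47 of them among the 23234 genes of the deposited expression table, chosen by symbol from a list of licensing, fork and nucleotide supply genes. All 47 matched a row by their current symbol, and all 47 reached 1 FPKM (fragments per kilobase of transcript, normalised for sequencing depth) in every library used. RNA sequencing was carried out on extensively self-renewing erythroblasts of the mouse, which are immature precursors of red cells derived from the early fetus and kept dividing in culture. The labels describe 4 samples, 1 per group, and values of 3 libraries were used. The proliferating control carried a non-targeting short hairpin RNA (shRNA), the proliferating knockdown carried an shRNA against Setd8, and the maturing control carried the non-targeting shRNA and had been in maturation medium for 6 h. The maturing knockdown was not analysed here. The labels give no mouse strain, no number of cultures behind a sample and no clone.

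Replication origins are licensed when the origin recognition complex, Cdc6 and Cdt1 load the Mcm2 to Mcm7 helicase onto DNA as an inactive ring, and geminin (Gmnn) blocks Cdt1 until the next cycle. In S phase the kinase Cdc7 with Dbf4, and the factors Cdc45, GINS and Mcm10, switch the helicase on, and polymerases alpha, delta and epsilon copy the strands with the sliding clamp PCNA. Setd8 monomethylates lysine 20 of histone H4. Further methylation of that lysine gives a mark that the BAH domain of ORC1 binds, and Setd8 and Cdt1 are both destroyed in S phase through PCNA and the CRL4-Cdt2 ubiquitin ligase. Erythroblasts divide rapidly before they mature, and many replication genes are known targets of E2F transcription factors.

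Since many of these genes are known E2F targets, the 250 bases before the annotated start were searched for the 4 spellings TTTCCCGC, TTTCGCGC, TTTGCCGC and TTTGGCGC of the E2F consensus on both strands, with overlapping matches allowed. The motif was chosen after the expression values were known. Sequences are those of RefSeq on GRCm38.p6, which is not the mm9 build of the expression table, and were matched by symbol. An entry was found for 39 of the 47 genes, all but Gmnn, Mcm4, Gins1, Gins2, Gins4, Prim2, Pole and Rfc2. A gene counted as having a match if any of its entries held one. This was so for 9 of 39 genes (23.1%). Of 6800 genes that reached 1 FPKM in at least 1 library and had an entry, 4.46% had a match. Of all 27025 genes with an entry, 2.16% had one. The 9 genes were Orc1, Orc3, Cdc6, Mcm5, Mcm6, Mcm7, Gins3, Pola1 and Rfc3, so 6 of them are licensing genes. The sequences are those of 3 licensing genes with a match, and Mcm3, which had the lowest knockdown ratio of all 47 genes and no match. Capitals mark the E2F matches. The Cdc6 stretch lies at chr11:98907901-98908150, plus strand, that of Mcm5 at chr8:75109259-75109508, plus strand, that of Mcm6 at chr1:128359706-128359955, minus strand and that of Mcm3 at chr1:20820313-20820562, minus strand.
Cdc6: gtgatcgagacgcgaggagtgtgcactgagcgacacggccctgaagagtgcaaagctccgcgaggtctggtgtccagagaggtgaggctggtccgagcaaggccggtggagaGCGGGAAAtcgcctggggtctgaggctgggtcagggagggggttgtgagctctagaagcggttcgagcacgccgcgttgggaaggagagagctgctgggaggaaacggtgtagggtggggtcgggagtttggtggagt
Mcm5: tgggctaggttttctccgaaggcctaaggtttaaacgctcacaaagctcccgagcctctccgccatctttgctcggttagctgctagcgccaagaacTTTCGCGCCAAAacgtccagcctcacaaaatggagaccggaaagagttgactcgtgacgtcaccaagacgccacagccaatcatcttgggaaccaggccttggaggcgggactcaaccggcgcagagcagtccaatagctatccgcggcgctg
Mcm6: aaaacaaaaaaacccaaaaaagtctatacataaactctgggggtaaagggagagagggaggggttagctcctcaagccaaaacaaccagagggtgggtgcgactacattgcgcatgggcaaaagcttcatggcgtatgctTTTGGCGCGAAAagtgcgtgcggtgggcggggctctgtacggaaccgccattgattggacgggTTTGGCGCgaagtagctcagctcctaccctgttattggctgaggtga
Mcm3: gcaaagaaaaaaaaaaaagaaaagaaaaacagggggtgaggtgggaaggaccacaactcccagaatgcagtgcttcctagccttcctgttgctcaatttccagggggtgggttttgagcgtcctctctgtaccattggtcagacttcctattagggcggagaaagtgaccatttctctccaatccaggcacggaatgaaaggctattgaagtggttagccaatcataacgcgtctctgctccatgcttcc
In Mcm5 and in Mcm6, matches on opposite strands overlap and read as 1 run, and Mcm6 holds a further match nearer the start. Relative to the proliferating control, the 9 genes with a match had median log2 ratios of -0.30 in the knockdown and 0.41 in the maturing control. For the 30 genes with an entry and no match these medians were -0.31 and 0.25. For the knockdown against the maturing control they were -0.75 with a match and -0.52 without. In that comparison the median was -0.77 over all licensing genes and -0.52 over all fork genes. Since 6 of the 9 genes with a match are licensing genes, match and class cannot be told apart here. These differences were not tested, and a match is a description of letters, not of binding.

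Setd8 itself was at 9.28 FPKM in the knockdown, against 25.1 FPKM in the proliferating and 25.9 FPKM in the maturing control, so that 37.0% of its level was left. Fragments per library were not given. Very low genes placed the depth of the knockdown library at 1.43 times and that of the maturing control at 1.56 times the proliferating control. Of the erythroblast markers, Alas2 alone was below 1 FPKM in a library, at 0.0900 FPKM in the knockdown, and the 9 erythroblast markers summed to 721 FPKM in the knockdown, against 1862 FPKM in the proliferating and 3007 FPKM in the maturing control. Most of that sum came from the globin entries Hba-a1 and Hbb-b1. The other 7 erythroblast markers summed to 176 FPKM, against 221 and 297 FPKM, and the transcription factor genes Gata1 (52.8 and 61.1 FPKM in the proliferating control and the knockdown) and Tal1 (40.3 and 49.0 FPKM) had higher values in the knockdown. The 10 mast cell and basophil markers summed to 580.3 FPKM in the knockdown, against 109 FPKM in the proliferating and 63.4 FPKM in the maturing control. Most of that sum came from Hdc and Gata2 in every library. Hdc was at 277 FPKM in the knockdown, against 42.5 FPKM in the proliferating and 28.7 FPKM in the maturing control. Gata2 was at 129 FPKM, against 54.9 and 29.6 FPKM. The authors' deposited table called 8 of the 10 markers higher in the knockdown, all but Cpa3 and Fcer1a. Among all 11665 genes tested, 9.05% were called in either direction. Tpsab1, Tpsb2, Mcpt4 and Mitf reached 1 FPKM only in the knockdown, and none of the 10 was at 0 in any library. The 5 megakaryocyte markers summed to 9.93 FPKM in the knockdown, against 3.13 FPKM in the proliferating and 2.98 FPKM in the maturing control, and the 6 granulocyte and monocyte markers to 10.9 FPKM, against 4.45 and 4.77 FPKM. In the granulocyte and monocyte list Fcgr3 went from 3.59 FPKM in the proliferating control to 10.4 FPKM in the knockdown, and Cd68 from 0.855 to 0.377 FPKM. Calls in the knockdown were not limited to the mast cell and basophil list. Itga2b, Gp9 and Pf4 of the megakaryocyte list and Fcgr3 and Itgam were called higher. Hba-a1, Hbb-b1 and Alas2 were called lower. Pf4 and Itgam stayed below 1 FPKM in all 3 libraries. Vwf and Mpo were among those listed at 0 in the proliferating control. Lymphocyte, fibroblast and endothelial markers stayed below 1 FPKM in all 3 libraries. In both comparisons with the proliferating control the erythroblast sum moved in the same direction as the median replication ratio given later, and the mast cell and basophil sum in the opposite direction. The ribosomal RNA precursor Rn45s was higher in both, with 95.0 FPKM in the proliferating control, 133 FPKM after maturation and 190.5 FPKM with the knockdown. The part of these in the replication ratios was not tested.

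Comparing the proliferating knockdown with the proliferating control asks how a lower Setd8 level bears on the replication programme. The knockdown library had lower values for 44 of the 47 genes, and its levels ranged from 54.6% of the control for Mcm3 to 113% for Orc4. The median log2 ratio of FPKM + 1 was -0.30, with an interquartile range from -0.46 to -0.21. Over the 8490 genes at 1 FPKM or more in every library the median was -0.06 and 57.9% had a lower value. The authors' deposited table called 0 of the 47 genes at a q-value of at most 0.05, where 9.05% of the 11665 genes tested were called. An unadjusted p under 0.05 was reached by 1 of the 47, Mcm3, against 14.7% of all genes tested. Lower values were thus common among these genes, and none was called. For 30 of the 47 genes the deposited log2 ratio was smaller than 1 standard error of the authors' model, which had a median of 0.47 and was estimated without replicates named in the labels. With 1 library per group no spread between replicates could be set against any difference. Where 3 values are given in a row without library names, they stand in the order proliferating control, knockdown, maturing control. In bulk RNA, fewer cells in S phase and less replication RNA per cell cannot be told apart.

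**Figure D1:**
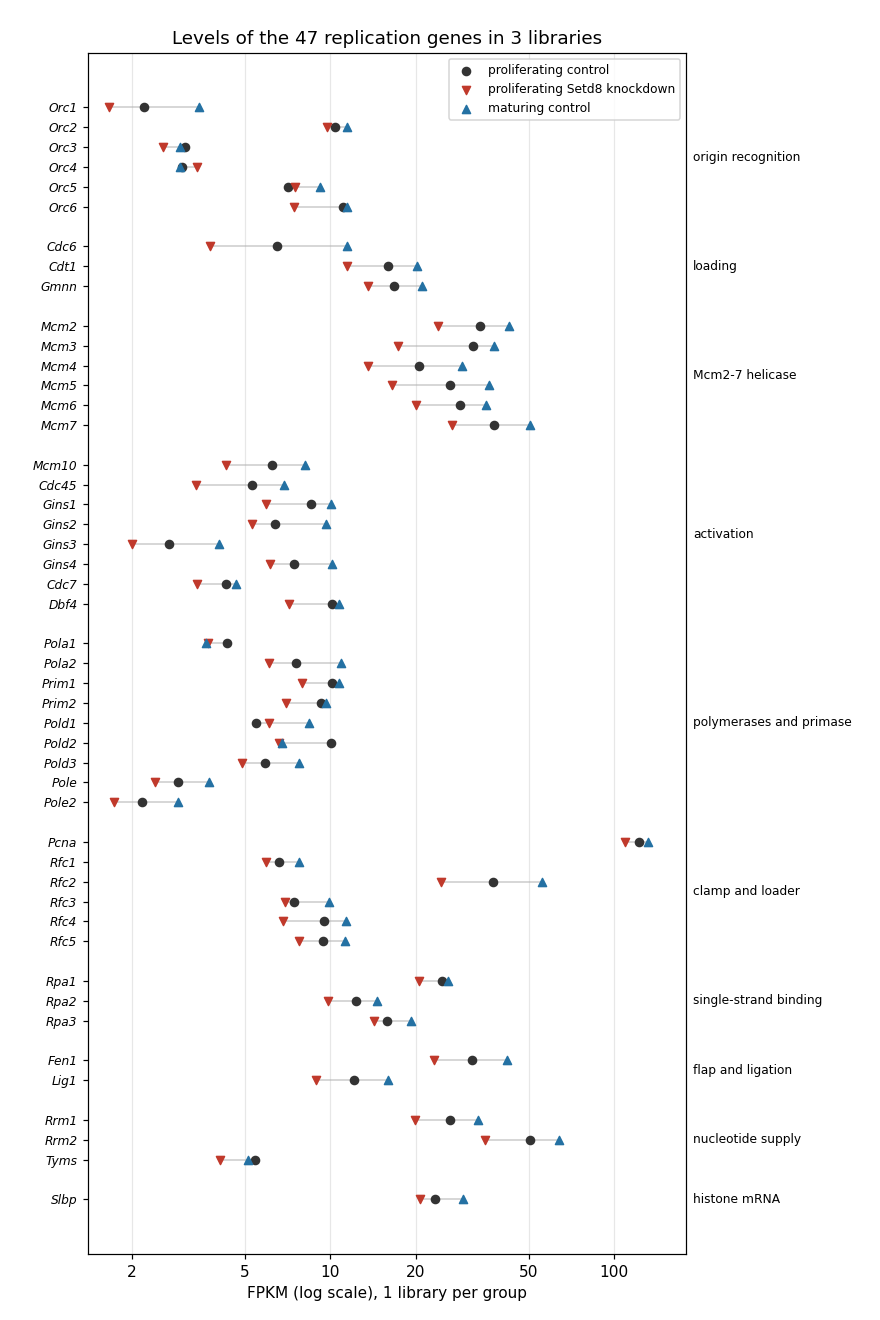
Levels of the 47 replication genes in FPKM on a log axis, grouped by role, with 1 point for each of the 3 libraries and a grey line from the lowest to the highest. The knockdown point lies left of the proliferating control for 44 genes, and Cdc6 has the widest spread, from 3.76 to 11.5 FPKM.

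The Mcm2 to Mcm7 genes, which encode the 6 subunits of the replicative helicase, had the lowest median of any role with more than 1 member, at -0.53, and all 6 had lower values. They were expressed at similar levels, within 1.84-fold of each other in the proliferating control, 1.99-fold in the knockdown and 1.74-fold in the maturing control. Together they summed to 118 FPKM in the knockdown, against 179 FPKM in the proliferating and 232 FPKM in the maturing control. Mcm3 (chromosome 1, 20793094 to 20810294, mm9 as the deposited table gives it) was at 17.4 FPKM in the knockdown, against 31.8 FPKM in the proliferating and 37.7 FPKM in the maturing control. In the knockdown comparison the authors' deposited table gave Mcm3 a log2 ratio of -0.87, a p of 0.0295 and a q of 0.264. Mcm5 (chromosome 8, 77633426 to 77652338, mm9) was at 16.5 FPKM in the knockdown, against 26.5 FPKM in the proliferating and 36.3 FPKM in the maturing control. Mcm4, the least abundant of the 6 in every library, was at 13.5 FPKM in the knockdown, against 20.5 FPKM in the proliferating and 29 FPKM in the maturing control. Mcm7, the most abundant in every library, was at 26.9 FPKM in the knockdown, against 37.7 FPKM in the proliferating and 50.6 FPKM in the maturing control. Its row shares a locus with 3 microRNA rows, Mir106b, Mir25 and Mir93, each listed at 0 in the proliferating control. The remaining subunits were close to these, with Mcm2 at 24 FPKM in the knockdown, against 33.6 FPKM in the proliferating and 42.8 FPKM in the maturing control and Mcm6 at 20.01 FPKM in the knockdown, against 28.7 FPKM in the proliferating and 35.5 FPKM in the maturing control. In each of the 6 genes the knockdown library was the lowest of the 3 and the maturing control the highest. In the knockdown comparison each of their deposited log2 ratios exceeded 1 standard error of the authors' model, and none was called.

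The loading factors were lower too. Cdc6 (chromosome 11, 98769202 to 98785256, mm9), the ATPase that recruits the helicase to the origin, was at 3.76 FPKM in the knockdown, against 6.48 FPKM in the proliferating and 11.5 FPKM in the maturing control. The authors' deposited table gave it a log2 ratio of -0.78 with a q of 0.55 for the knockdown. Cdt1, which brings the helicase to the origin with Cdc6, was at 11.4 FPKM in the knockdown, against 16 FPKM in the proliferating and 20.2 FPKM in the maturing control. Geminin, its inhibitor, was at 13.6 FPKM in the knockdown, against 16.8 FPKM in the proliferating and 21.1 FPKM in the maturing control. The loaders and their inhibitor therefore had lower values side by side, and Cdc6 had the widest fold range of the 47 genes across the 3 libraries.

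The origin recognition complex had a smaller median ratio than the other licensing roles. Its 6 genes had a median of -0.14 in the knockdown, with 4 lower and 2 higher, and summed to 87.5% of the control level, while the Mcm2 to Mcm7 genes summed to 66.2%. This difference between roles was not tested. Orc6, the smallest subunit, was at 7.43 FPKM in the knockdown, against 11.1 FPKM in the proliferating and 11.5 FPKM in the maturing control. Orc1, the subunit that carries the BAH domain, was at 1.66 FPKM in the knockdown, against 2.21 FPKM in the proliferating and 3.44 FPKM in the maturing control, the lowest level of the complex in the proliferating libraries. Orc2 was at 10.4, 9.70 and 11.5 FPKM and Orc3 at 3.08, 2.57 and 2.96 FPKM. Orc4 (2.99, 3.38 and 2.94 FPKM) and Orc5 (7.10, 7.49 and 9.17 FPKM) had higher values in the knockdown. The rows of Orc3, Orc4 and Orc5 share a locus with Akirin2, Acvr2a and Gm15421 in that order, so their levels are less certain. Both subunits with higher values are among them. Orc1, Orc2 and Orc6, which share no locus, had ratios of -0.27, -0.09 and -0.52. The smaller median of the complex thus rests in part on the shared rows. For Orc5 the standard error of the authors' model was 0.98 in the knockdown comparison.

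**Figure D2:**
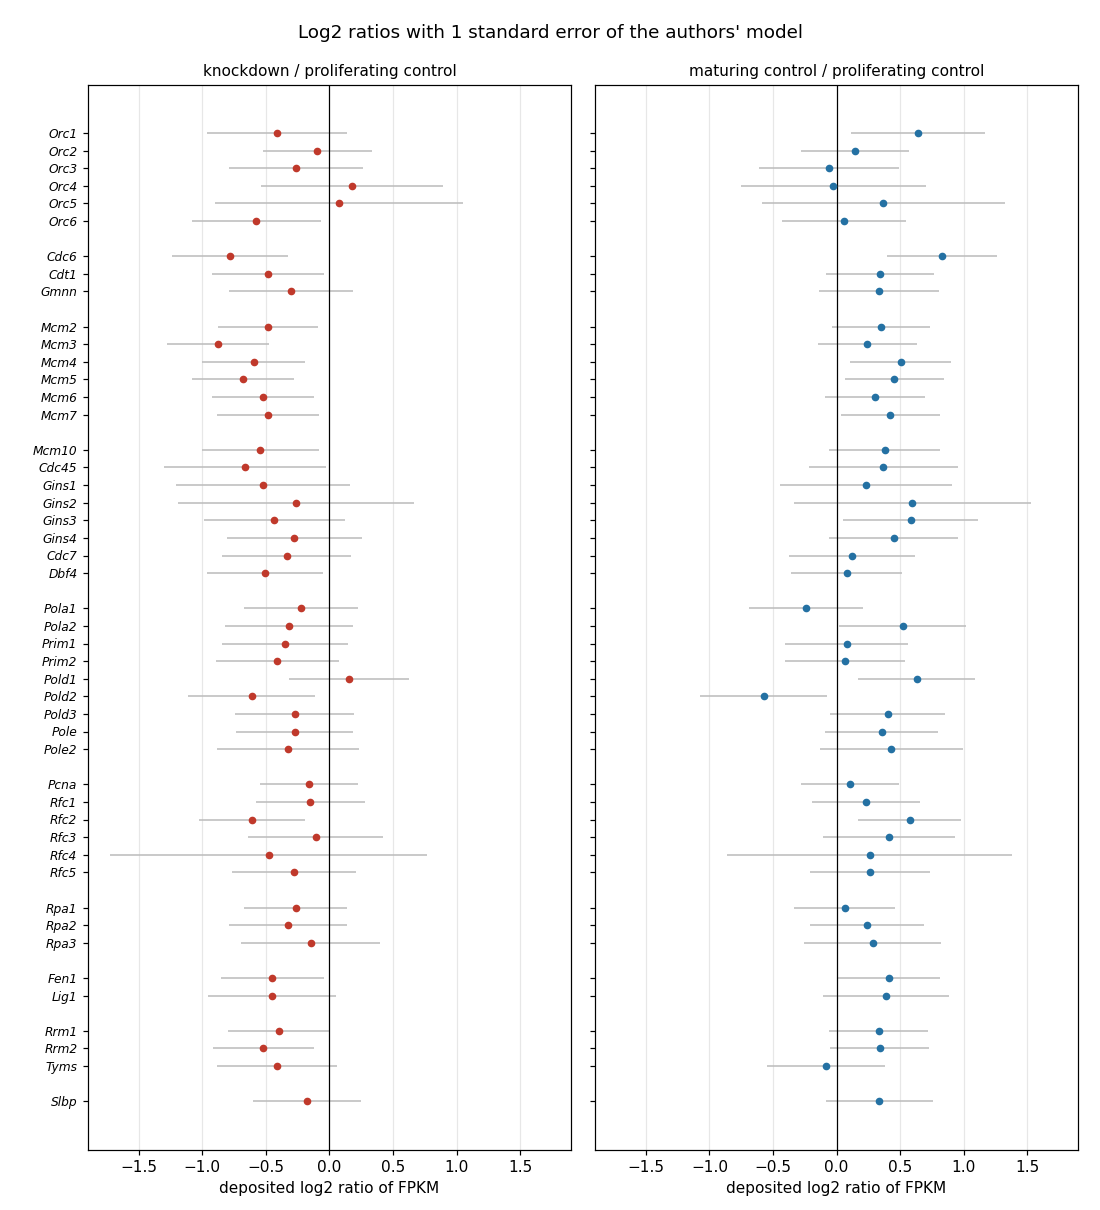
Deposited log2 ratio of each of the 47 genes, in the order of the plot of levels, with bars of 1 standard error of the authors' model. Most knockdown points lie left of 0 and most maturation points right of 0, and most bars cross 0.

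The fork class takes in helicase activation, Cdc7 and Dbf4 among them, polymerases and primase, clamp and loader, single-strand binding, and flap and ligation. Its knockdown medians by role ran from -0.42 for flap and ligation to -0.20 for clamp and loader. Among the 28 fork genes the knockdown median was -0.27, with 27 lower and 1 higher, against -0.47 for the 15 licensing genes and -0.38 for the 3 nucleotide supply genes. On the ratio of FPKM without a pseudocount, an alternative chosen after the data were seen, these medians were -0.33 for fork, -0.48 for licensing and -0.41 for nucleotide supply genes. The means were -0.38 for licensing, -0.30 for fork and -0.41 for nucleotide supply genes, so by the mean the supply genes were lowest. These differences between classes were not tested.

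All 8 genes that activate the helicase had lower values in the knockdown, with a median of -0.38. Cdc45, which joins the helicase at the fork, was at 3.36 FPKM in the knockdown, against 5.32 FPKM in the proliferating and 6.87 FPKM in the maturing control. Mcm10, which acts at helicase activation, was at 6.25, 4.28 and 8.12 FPKM. Dbf4, the activating subunit of the Cdc7 kinase, was at 10.1, 7.13 and 10.7 FPKM, and Cdc7 at 4.27, 3.39 and 4.64 FPKM. For both kinase genes the proliferating and maturing controls lay close together and the knockdown was lower. The 4 GINS genes, whose products complete the active helicase, ranged in ratio from -0.46 for Gins1 to -0.22 for Gins2. Gins1 was at 8.56, 5.95 and 10.04 FPKM, Gins2 at 6.37, 5.31 and 9.63 FPKM, Gins3 at 2.71, 2.01 and 4.06 FPKM and Gins4 at 7.42, 6.13 and 10.1 FPKM. Gins2 shares its locus with Gse1, and its standard error in the authors' model was 0.93.

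Polymerase and primase genes had a median of -0.23 over 9 genes, 8 of them lower. Their levels were modest, from 2.16 FPKM for Pole2 to 10.1 FPKM for Prim1 in the proliferating control. Pold1, the catalytic subunit of polymerase delta, had a higher value in the knockdown, at 6.08 FPKM in the knockdown, against 5.46 FPKM in the proliferating and 8.45 FPKM in the maturing control. Pold2 (chromosome 11, 5761868 to 5778259, mm9), an accessory subunit of the same enzyme, was at 6.58 FPKM in the knockdown, against 10.1 FPKM in the proliferating and 6.77 FPKM in the maturing control. These partners of 1 enzyme thus ran in opposite directions in both comparisons with the proliferating control, although the authors' deposited table called neither and Pold2 shares its locus with Aebp1. Pold3, a further delta subunit, was at 5.89, 4.87 and 7.79 FPKM. In polymerase alpha, the enzyme that starts each strand, the catalytic Pola1 was at 4.32, 3.70 and 3.65 FPKM and the accessory Pola2 at 7.60, 6.08 and 10.9 FPKM. Its primase partners were at 10.1, 7.97 and 10.7 FPKM for Prim1 and 9.24, 6.96 and 9.68 FPKM for Prim2. The catalytic subunit of polymerase epsilon, Pole, was at 2.91, 2.41 and 3.73 FPKM, and Pole2 at 2.16, 1.73 and 2.92 FPKM.

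Pcna, the clamp, was the most abundant of the 47 genes in every library, at 109.6 FPKM in the knockdown, against 123 FPKM in the proliferating and 132 FPKM in the maturing control, and its knockdown ratio of -0.16 was among the smaller ones. Rfc2 (chromosome 5, 135058559 to 135074198, mm9), a subunit of the clamp loader, was at 24.5 FPKM in the knockdown, against 37.5 FPKM in the proliferating and 55.8 FPKM in the maturing control. The other 4 loader genes had levels between 5.96 and 11.4 FPKM in all 3 libraries, with Rfc1 at 6.61, 5.96 and 7.76 FPKM, Rfc3 at 7.44, 6.90 and 9.90 FPKM, Rfc4 at 9.48, 6.80 and 11.4 FPKM and Rfc5 at 9.42, 7.76 and 11.3 FPKM. Rfc2 therefore stood above its partners in level in every library and had the lowest knockdown ratio of the 5, at -0.59 against -0.42 to -0.09. Rfc4 shares its locus with Eif4a2 and 2 small nucleolar RNA rows, and had the largest standard error of the 47 genes, at 1.25. The single-strand binding genes had ratios of -0.25 for Rpa1, -0.30 for Rpa2 and -0.14 for Rpa3. Rpa1 was at 24.8, 20.6 and 25.9 FPKM, Rpa2 at 12.3, 9.81 and 14.6 FPKM and Rpa3 at 15.8, 14.3 and 19.3 FPKM. On the lagging strand the flap endonuclease gene Fen1 was at 23.1 FPKM in the knockdown, against 31.6 FPKM in the proliferating and 42 FPKM in the maturing control. Lig1, the ligase that joins Okazaki fragments, was at 12.1, 8.88 and 15.9 FPKM, and its row shares a locus with 6330408A02Rik.

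Nucleotide supply genes were lower in the knockdown in 3 of 3 cases. Rrm2, the small subunit of ribonucleotide reductase, was at 35.2 FPKM in the knockdown, against 50.6 FPKM in the proliferating and 64.1 FPKM in the maturing control, second to Pcna among the 47 genes in all 3 libraries. Rrm1, its large subunit, was at 19.9 FPKM in the knockdown, against 26.3 FPKM in the proliferating and 33.1 FPKM in the maturing control. Tyms, the thymidylate synthase gene, was at 4.09 FPKM in the knockdown, against 5.44 FPKM in the proliferating and 5.13 FPKM in the maturing control. Slbp, whose product binds the stem-loop of histone mRNAs, had a ratio of -0.17, at 23.4, 20.6 and 29.5 FPKM.

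**Figure D3:**
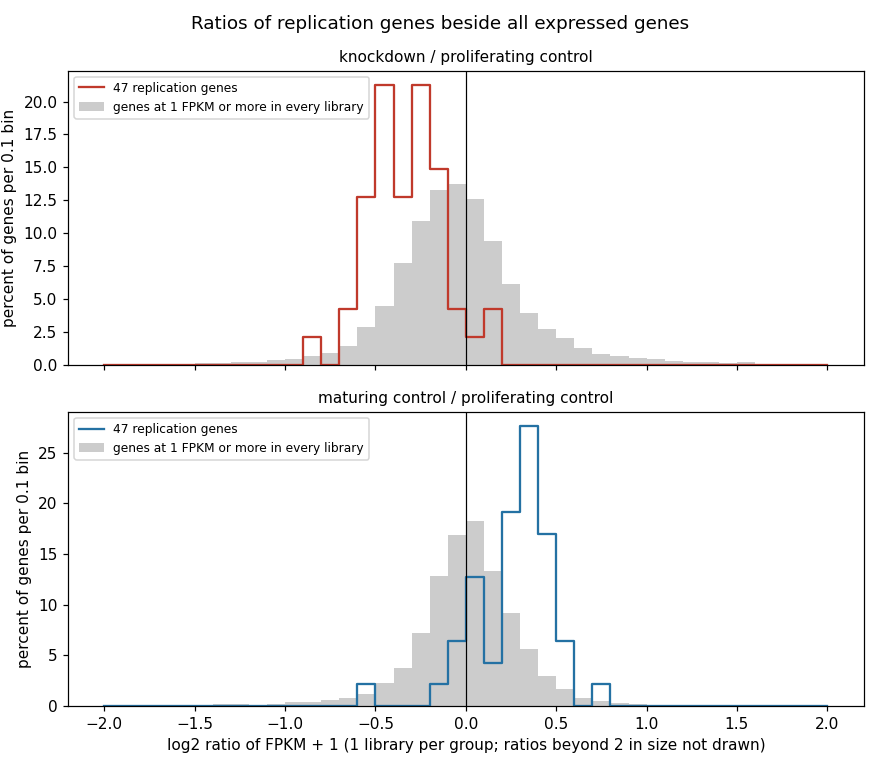
Share of genes per 0.1 bin of the log2 ratio of FPKM + 1, for the 47 replication genes (coloured line) and the 8490 genes at 1 FPKM or more in every library (grey bars). The coloured line lies left of the grey bars in the knockdown, with medians of -0.30 and -0.06, and right of them in the maturing control, with medians of 0.32 and 0.02.

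The second comparison set the maturing control against the proliferating control and asks how these genes stand after 6 h in maturation medium. It shares the proliferating control library with the first, so the 2 sets of ratios are not independent. Values were higher for 42 of the 47 genes, with a median log2 ratio of 0.32 and an interquartile range from 0.12 to 0.39. Among the 8490 genes at 1 FPKM or more in every library the median was 0.02 and 53% had a higher value. The authors' deposited table called 0 of the 47, where 1.75% of the 11298 genes tested were, and 0 had an unadjusted p under 0.05, against 4.9% of all tested. For 36 of the 47 the deposited log2 ratio was smaller than 1 standard error of the authors' model. Licensing genes had a median of 0.32, fork genes 0.27 and nucleotide supply genes 0.32. The supply class holds 3 genes, of which Tyms was lower, at -0.07, and its mean was 0.20. A separate list of 10 nucleotide supply genes, given below, had a median of -0.16, with 7 lower.

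Cdc6 had the highest maturation ratio of the 47 genes, at 0.74, with a deposited p of 0.0541 and a q of 0.408 in the authors' deposited table. Rfc2 followed at 0.56, then Pold1 at 0.55 and Gins2 at 0.53. The Mcm2 to Mcm7 genes lay between 0.24 for Mcm3 and 0.48 for Mcm4. Orc1 was at 0.47, the highest of the origin recognition complex, while the median over the 6 subunits was 0.09. Lower values were held by Pold2, at -0.51, Pola1, at -0.19, Tyms, at -0.07, Orc3, at -0.04, and Orc4, at -0.02. The genes of 1 complex did not share 1 value here: within polymerase alpha, Pola1 stood at -0.19 and Pola2 at 0.47. Standard errors of the authors' model were 0.45 and 0.50 for these genes, neither was called, and their difference was not tested.

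The authors also compared the knockdown with the maturing control, a pair that differs both in the shRNA and in the medium and shares each library with 1 of the comparisons above. The knockdown had lower values for 45 of the 47 genes, with a median log2 ratio of -0.58, where 59.1% of the 8490 expressed genes were lower and their median was -0.07. For Tyms these ratios rest on its levels in the other comparisons. In the table used here the rows of this comparison follow the gene order of the others and end at Slc2a13, after 19067 of the 23234 genes. Its calls and their shares over all genes therefore leave out genes later in that order, Tyms among them, and may differ over a full list. Of the 46 genes with a row in this part of the authors' deposited table, 1 was called, against 11.6% of the 9241 genes tested. That gene was Cdc6, called lower with a log2 ratio of -1.61, a standard error of 0.45 and a q of 0.00577 in the authors' deposited table. Rfc2 and Mcm5 came next, with q-values of 0.053 and 0.0558 in the authors' deposited table and log2 ratios of -1.19 and -1.14. An unadjusted p under 0.05 in the lower direction was reached by 12 of the 46 genes, or 26.1%, against 7.39% of all genes tested. That share counts lower genes only, whereas the shares given for the other comparisons count either direction. The share of all genes in either direction would be larger and was not counted here. They were all 6 genes of the Mcm2 to Mcm7 helicase, Cdc6, Orc1, Mcm10, Rfc2, Fen1 and Rrm2. Summed levels of the knockdown were 51.0% of the maturing control for the helicase genes, 54.5% for the loading genes and 77.7% for the origin recognition genes. The last value includes the rows of Orc3, Orc4 and Orc5, which share a locus with other genes. Orc4 at 0.15 and Pola1 at 0.01 were the 2 genes without a lower value. Pold2, at -0.03, changed its sign under 3 of the other scalings.

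A further 52 genes of replication outside the 47 were listed by function. In the knockdown 46 of these 52 had lower values, with a median log2 ratio of -0.32, and 0 were called in the authors' deposited table, against 57.9% lower among the 8490 expressed genes and 9.05% called among all tested. Timeless had a failed test in the knockdown comparison and could not be called. In the maturing control 36 of the 52 had higher values, with a median of 0.16, and again 0 were called in the authors' deposited table, against 53% higher and 1.75% called. The lowest knockdown ratios were those of Umps, which makes uridine monophosphate, at -0.83 (10.4 and 5.44 FPKM), and Pole3, a polymerase epsilon subunit, at -0.64 (22.3 and 13.9 FPKM). The highest were Samhd1, the enzyme that breaks down deoxynucleotides, at 1.17, and Pold4, the small polymerase delta subunit, at 0.65. Samhd1 was at 18.2 FPKM in the knockdown, against 7.52 FPKM in the proliferating and 5.78 FPKM in the maturing control, and the authors' deposited table gave it a q of 0.0798 in the knockdown against the proliferating control. Against the maturing control the authors' deposited table called Samhd1 higher in the knockdown (log2 ratio 1.65, q 0.0165). The supply enzymes Rrm1, Rrm2 and Tyms had lower values in the knockdown library, none of them called. Samhd1, named here because its ratio was the highest of the 52, had a higher value. This contrast was not tested. The genes of PCNA-coupled destruction, Cul4a, Cul4b, Ddb1 and Dtl, all had lower values in the knockdown, as did Skp2, listed with them. Dtl, which encodes Cdt2, the subunit that recognises Setd8 and Cdt1, was at 4.90 FPKM in the knockdown, against 6.70 FPKM in the proliferating and 9.52 FPKM in the maturing control. In maturation the nucleotide supply list went the other way from the fork list, with 7 of 10 lower and a median of -0.16, against 14 of 17 higher and a median of 0.31. Shmt1, which feeds 1-carbon units to thymidylate synthesis, had the lowest maturation ratio of the 52, at -1.05 (7.93 and 3.32 FPKM), followed by Dut, the dUTPase gene, at -0.38. The highest were Dscc1, part of an alternative clamp loader, at 0.68, and Wdhd1, which links the helicase to polymerase alpha, at 0.54. None of these contrasts between lists was tested.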

How the data were processed

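The authors deposited 1 table in the layout of Cuffdiff output, with 65535 rows in 3 comparisons, and the third covers 19067 of the 23234 genes. Per the submitters' processing notes, Cufflinks 2.0.2, Cuffdiff and FastQC 0.10.1 were used with mm9. For the aligner and annotation, no name is given in the sources used here. Per the file headers, each row gives a value per library, read as FPKM, with a p-value and a q-value. In the authors' deposited table the q-value never fell as p rose across the 3 comparisons, so q appears to be adjusted over them jointly. Libraries were matched to samples by title, and the knockdown by the target and number in its name.

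Log2 ratios are of FPKM + 1, which understates low genes. The authors' standard error was taken as the log2 ratio over the deposited test statistic. No test was run. Members and lists were chosen with earlier results of these data known. Genes were named by role, with the highest and lowest ratios and the lowest p. Alternatives were filters (none, 5 FPKM), pseudocounts of 0.1 and 5, 4 scalings, the mean, and a q of 0.01. Rows sharing a locus (8 members) were kept. Depth in fragments is unknown, so no counting interval was given. The ratio without a pseudocount, and its median, were tested on simulated data built from genes at 5 FPKM or more in the proliferating control. Python 3.11.15, numpy 2.4.6, pandas 2.3.3, scipy 1.17.1 and matplotlib 3.10.9 were used.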

Additional observations from a re-analysis of the deposited data

How the results depend on the processing

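All medians of the 47 genes and the licensing, fork and nucleotide supply classes kept their sign under every filter, pseudocount, scaling and summary tried. Of 141 alternative values, 135 lay within 0.1 (log2) of the main one or left a count as it was. Part of these could not differ. All 47 genes reached 1 FPKM, so using no filter changed nothing, and stricter cuts cannot change a count of 0. The 5 FPKM filter and leaving out shared loci removed none of the 3 supply genes. A pseudocount cannot change the sign of a gene's ratio. Over the alternatives the median of the 47 genes ranged from -0.40 to -0.22 in the knockdown and from 0.22 to 0.34 in the maturing control. The mean of the 3 nucleotide supply genes in the maturing control was 0.20. With a pseudocount of 5 the medians for the knockdown against the maturing control were -0.40 over all 47 genes, -0.62 for licensing and -0.36 for fork genes, since a larger pseudocount shrinks low genes. An unadjusted p under 0.05 gave 1 gene in the knockdown and 12 in the knockdown against the maturing control. The counts of 44 lower and 42 higher genes were the same under each scaling, and no scaling moved the median of all measured genes by over 0.1. The comparison with the maturing control, the ratio without a pseudocount and the medians without shared loci were added after seeing the data. Leaving out a replicate was not possible with 1 library per group. No paired analysis was possible because each group has 1 library. The absolute depth is unknown, so a small ratio cannot be set against counting error.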

Other observations

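The CCAAT box, the letters CCAAT, was searched on both strands in the 250 bases before the annotated start. In any entry of a gene, it was present for 24 of the 39 replication genes with an entry (61.5%). The shares were 42.1% of 6800 expressed genes with an entry and 37.5% of all 27025 genes with an entry. The 24 genes with a match had a median log2 ratio of -0.31 in the knockdown and the 15 without one -0.28. In the maturing control these medians were 0.28 and 0.32, and for the knockdown against the maturing control -0.55 and -0.53. These differences were not tested.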
